A study of Mus musculus with 9 samples.

Results

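Neutrophils carry ready-made antimicrobial proteins in granules that are filled in a fixed order while the cell matures in the bone marrow. Primary granule proteins are made first, in promyelocytes. Specific (secondary) granule proteins follow in myelocytes and metamyelocytes, and receptors such as Cxcr2 appear late, as the cell becomes ready to enter the blood. Transcripts of the early granule proteins are therefore mostly lost by the time a neutrophil leaves the marrow, while S100a8 and S100a9, the subunits of the alarmin calprotectin, stay abundant in mature cells. In a lung given bacterial endotoxin, neutrophils enter the airspaces within hours and are cleared over the following days.

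Described here are 10 genes of this programme, found by gene name in the deposited table, out of 21930 genes in all. They are the specific granule genes Ngp, Camp and Ltf, the granule and epithelial gene Lcn2, the alarmins S100a8 and S100a9, the mature neutrophil genes Retnlg, Cxcr2 and Csf3r, and the secreted glycoprotein gene Lrg1. All 10 had enough reads to be tested, with 44 reads or more in every library.

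Lung RNA was sequenced from 9 male C57BL/6 mice of 6 to 8 weeks in 3 groups of 3 biological replicates. All mice were anaesthetised with tribromoethanol and received an intratracheal instillation. LPS plus RSBD mice received lipopolysaccharide (LPS, the endotoxin of Gram-negative bacteria) at 2 mg/kg and, from 24 h later, a daily gavage of RSBD, the decocted Chinese herbal formula Renshen Baidu Powder. LPS mice received the same LPS and gavage of vehicle, and control mice sterile saline in place of LPS. Lungs were collected on day 5 after LPS. The labels give 5 days of gavage. The dose of RSBD is not given in the labels.

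The libraries held 26959662 to 36113905 counts, of which the 10 genes took 0.123% to 0.759%. Genes of lung epithelium and endothelium were abundant in every library, with 6639 to 11407 CPM (counts per 1000000 counts, scaled by TMM) of the surfactant gene Sftpc and 664 to 913 CPM of the endothelial gene Pecam1. Ly6g, the defining surface marker of mouse neutrophils, was read in every library, at 0.732 to 61.4 CPM. Genes of chromosome Y had 7511 to 10918 reads in each LPS plus RSBD and LPS library but 6, 7 and 9 reads in the libraries labelled control, although the labels give all mice as male. Every difference from the control libraries therefore cannot be told apart from a difference between libraries with and without chromosome Y transcripts.

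All values below are CPM unless TPM (a share of transcripts, which divides by transcript length) is named. Differences are given on the log2 scale with their SE. They were tested by edgeR (quasi-likelihood), with p adjusted by Benjamini-Hochberg over 15636 genes and a threshold of 0.05. In whole lung RNA, fewer neutrophils and less of a transcript per neutrophil cannot be told apart.

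The promoters of the 3 specific granule genes are shown because these genes are the ones compared with each other below, and because their expression in the marrow is known to depend on the transcription factor C/EBP epsilon. Ngp, Camp and Ltf lie on chromosome 9 within 1.20 Mb. Each sequence is the 250 bases before the RefSeq start of the gene, 5′ to 3′ on its own strand, on GRCm38.p6. These are chr9:110419558-110419807 on the plus strand for Ngp, chr9:109849457-109849706 on the minus strand for Camp and chr9:111019042-111019291 on the plus strand for Ltf. The gene starts of RefSeq and of the deposited table differ: the last 61 bases of the Ngp window, 161 of the Camp window and 21 of the Ltf window lie inside the gene as the table gives it. Capitals mark matches to the C/EBP letters TTGCNNAA on either strand.
Ngp: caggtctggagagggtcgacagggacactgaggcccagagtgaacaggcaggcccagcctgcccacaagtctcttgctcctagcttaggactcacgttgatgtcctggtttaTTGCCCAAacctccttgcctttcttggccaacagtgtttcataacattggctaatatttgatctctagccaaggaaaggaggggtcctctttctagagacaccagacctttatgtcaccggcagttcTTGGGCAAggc
Camp: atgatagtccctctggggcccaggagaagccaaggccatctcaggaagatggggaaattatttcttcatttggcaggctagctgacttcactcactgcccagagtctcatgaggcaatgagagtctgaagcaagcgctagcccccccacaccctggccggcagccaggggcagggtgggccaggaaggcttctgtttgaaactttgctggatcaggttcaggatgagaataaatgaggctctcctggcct
Ltf: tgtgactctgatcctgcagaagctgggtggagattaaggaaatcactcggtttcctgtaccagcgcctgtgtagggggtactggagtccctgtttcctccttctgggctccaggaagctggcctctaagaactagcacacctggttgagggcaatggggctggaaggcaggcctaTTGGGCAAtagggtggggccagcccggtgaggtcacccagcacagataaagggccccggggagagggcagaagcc

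The Ngp window held the C/EBP letters at 138 and 11 bases before the RefSeq start (counted to the first base of each match), of which the second lies inside the gene of the deposited table, and the Ltf window at 75 bases, while the letters are not in the Camp window. Over all 10 genes, 5 windows held them (Ngp, Ltf, Lcn2, S100a9 and Retnlg), against 9.56% of 32851 RefSeq promoter windows of this length. All 250 bases of the Lcn2 window lie inside the gene as the deposited table gives it, and so do its matches. The letters GAGGAAG, a core of PU.1 sites, stood in 3 of the 10 windows (Lcn2, S100a8 and Csf3r), against 10.6% of all windows. TATAAA stood in the S100a8 window alone among the 10, against 12.4% of all. The last 109 bases of the Csf3r window and 93 of the S100a8 window lie inside the gene of the deposited table. These stretches hold the Csf3r match to GAGGAAG (at 86 bases) and the S100a8 match to TATAAA (at 30 bases). A 10-letter NF-kB core was in 0 of the 10 and in 1.41% of all. Both strands were searched in each case, and a match is a description of letters.

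Ngp (neutrophilic granule protein, ENSMUSG00000032484, chromosome 9, 110419747 to 110423012), a cathelicidin-related specific granule protein, had the widest range of the 10 genes. It measured 7.24, 30.8 and 55.9 CPM in LPS plus RSBD libraries 1 to 3, 780, 551 and 238 CPM in LPS libraries 1 to 3, and 28.01, 17.9 and 109.9 CPM in control libraries 1 to 3. Every LPS library lay above every other library, and the LPS plus RSBD and control libraries overlapped. Camp (cathelicidin, ENSMUSG00000038357, chromosome 9, 109847379 to 109849617), the precursor of the antimicrobial peptide CRAMP, measured 1.21, 4.87 and 7.27 CPM in LPS plus RSBD, 94.2, 84.7 and 37.1 CPM in LPS, and 5.91, 3.34 and 21.8 CPM in control libraries. The pattern was that of Ngp, with the LPS libraries above all others and LPS plus RSBD 1 lowest.

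Ngp and Camp rose in LPS against control libraries. Ngp averaged 523 ± 272 CPM in LPS and 51.9 ± 50.5 CPM in control libraries (SD, n = 3 each), a log2 change of 3.33 ± 0.87 (edgeR adjusted p = 0.034). Camp averaged 72.03 ± 30.6 CPM in LPS and 10.3 ± 9.98 CPM in control libraries, a change of 2.80 ± 0.76 (edgeR adjusted p = 0.0371). They were the 2 members called of 10, where 17.4% of all genes tested were called in this comparison, 8.79% higher and 8.63% lower. The other 8 members had positive differences of 0.34 to 1.85 and did not pass. The median over the 10 was 1.09, against -0.01 over all genes. LPS libraries lay above control libraries without overlap for 5 of the 10 (Ngp, Camp, Lcn2, S100a8 and S100a9), where 38% of all genes did not overlap, 18.6% higher and 19.5% lower. Both calls were lost without control 1, control 2, LPS 1, LPS 2, LPS 3, LPS plus RSBD 2 or LPS plus RSBD 3, with adjusted p up to 0.0924 for Ngp and 0.0993 for Camp over 16 alternatives. The changes themselves stayed between 2.92 and 4.51 for Ngp and between 2.38 and 3.96 for Camp.

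**Figure D1:**
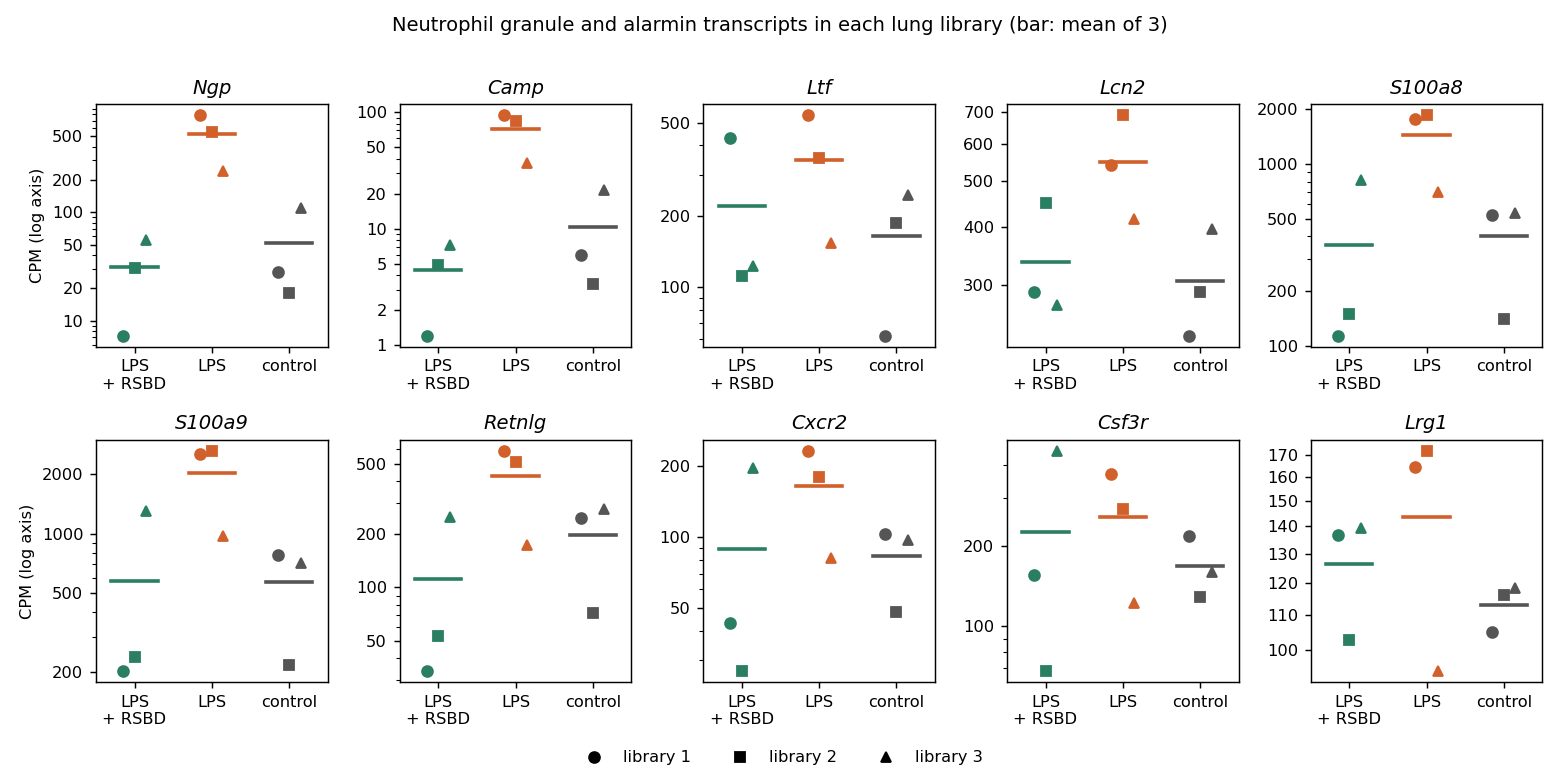
Level of each of the 10 genes in every library, in CPM on a log axis whose range differs between panels, for LPS plus RSBD, LPS and control libraries from left to right; markers give the library number and bars the mean of 3. For Ngp and Camp, all 3 LPS libraries lie above all others, while Csf3r and Lrg1 overlap in all groups.

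In LPS plus RSBD against LPS libraries, Ngp and Camp had the largest differences of the 10 genes, and neither passed the test. Ngp averaged 31.3 ± 24.3 CPM in LPS plus RSBD and 523 ± 272 CPM in LPS libraries, a log2 difference of -4.07 ± 0.91 (edgeR adjusted p = 0.348). Camp averaged 4.45 ± 3.05 CPM in LPS plus RSBD and 72.03 ± 30.6 CPM in LPS libraries, a difference of -4.04 ± 0.81 (edgeR adjusted p = 0.331). By unadjusted p in the edgeR fit, Ngp ranked at 64 and Camp at 33 of the 15636 genes. The share of genes called by edgeR in this comparison was 0%, with 0 genes of any kind past the threshold. At an unadjusted p under 0.05 there were 1473 genes (9.42%), and DESeq2 called 159. Of the 10 members, 6 were under that unadjusted p. The members were chosen with earlier results of these data known, so this is a description. DESeq2 called Ngp and Camp, with adjusted p = 0.00388 and 0.00172, and no other member, but gave no adjusted p for S100a8. With each library left out of the edgeR fit in turn, 0 of the 10 genes were called.

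Without overlap between LPS plus RSBD and LPS libraries, 2 of the 10 genes were lower, Ngp and Camp, where 5.46% of all genes were lower without overlap and 12.6% differed without overlap in either direction (7.18% higher). All 10 differences were negative, with a median of -1.35 against 0.01 over all genes tested. This comparison and that of LPS with control share the LPS libraries, so opposite signs in the 2 of them are not independent. LPS plus RSBD and control libraries overlapped for all 10 genes, with 6 differences positive and 4 negative (median 0.06, against 0.01 over all genes). No member was called there (edgeR adjusted p from 0.377 to 0.989), where 3.7% of all genes were called (1.89% higher and 1.8% lower) and 30.4% did not overlap. At an unadjusted p under 0.05 in the edgeR fit there were 0 members in that comparison, against 3555 (22.7%) of all genes. DESeq2, which gave no adjusted p for S100a8, called 0 members.

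**Figure D2:**
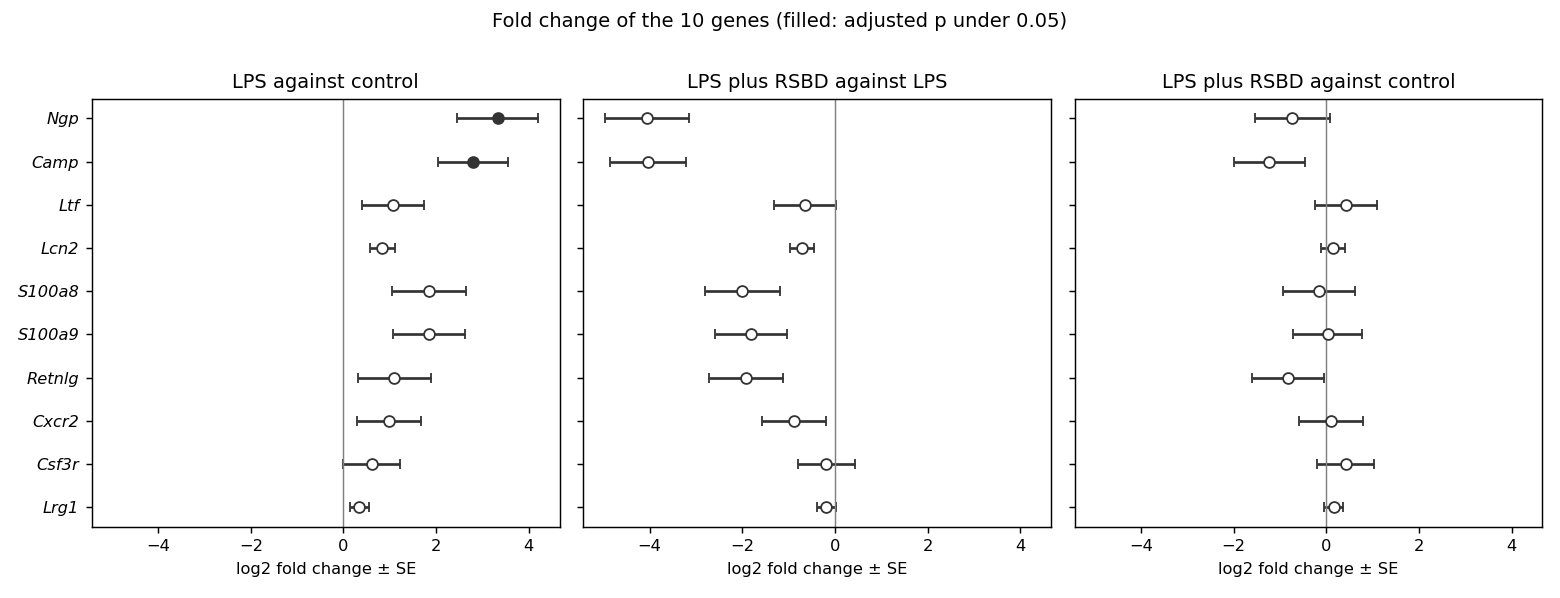
Log2 fold change of the 10 genes with its SE in the 3 comparisons, from edgeR's fit over all 9 libraries; filled points passed an adjusted p of 0.05. Ngp and Camp lie farthest from 0 in LPS against control (3.33 and 2.80) and in LPS plus RSBD against LPS (-4.07 and -4.04), and the differences of LPS plus RSBD against control lie between -1.23 and 0.43.

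Ltf (lactoferrin, ENSMUSG00000032496, chromosome 9, 111019271 to 111042767), the iron-binding protein of specific granules that glands and airway epithelium also secrete, did not follow Ngp and Camp. It measured 431, 111 and 123 CPM in LPS plus RSBD, 537, 355 and 154 CPM in LPS, and 61.9, 188 and 245 CPM in control libraries. The groups overlapped, and LPS plus RSBD 1, which was lowest for Ngp and Camp, was second highest of all libraries for Ltf. The log2 difference was 1.08 ± 0.67 in LPS against control (edgeR adjusted p = 0.285) and -0.65 ± 0.66 in LPS plus RSBD against LPS (adjusted p = 0.812). Without LPS plus RSBD 1 the difference from LPS was -1.57. It was -0.33 without LPS plus RSBD 2, -0.38 without LPS plus RSBD 3, -0.20 without LPS 1 and -1.03 without LPS 3.

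Within a library, 1 TPM of Ngp was matched by 0.294 to 0.316 TPM of Ltf in the 3 LPS libraries. The ratio of Ltf to Ngp was 26.8, 1.62 and 0.985 in LPS plus RSBD libraries 1 to 3, and in control libraries 1.007, 4.74 and 1.003. The LPS libraries were thus close to each other and below all others in this ratio. Bpifa1, a defence protein of the upper airway epithelium singled out here after its values had been seen, measured 1002, 60.5 and 279 CPM in LPS plus RSBD, 21.03, 32.3 and 13.96 CPM in LPS, and 229, 551 and 432 CPM in control libraries. It was highest in LPS plus RSBD 1, as was 1 other of the 10 club and secretory cell markers, the mucin gene Muc5b; the other 8 were highest elsewhere. The summed level of the 10 was 30865 CPM in LPS plus RSBD 1, of which Scgb1a1 made up 23670 CPM. Over the libraries the sum was 28969 to 37286 CPM in LPS plus RSBD, 21740 to 32512 CPM in LPS and 30466 to 42470 CPM in control libraries, with none at 0. In LPS against control, 6 of the 10 were called lower (60%, where 8.63% of all genes were called lower). In LPS plus RSBD against LPS, 6 lay higher without overlap, where 7.18% of all genes did, and 0 were called by edgeR. Their part in the Ltf level was not tested.

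Ngp and Camp kept a narrower ratio. Ngp was 3.76, 3.93 and 4.77 times Camp in TPM in LPS plus RSBD libraries, 5.14, 4.03 and 3.98 times in LPS libraries, and 2.96, 3.32 and 3.13 times in control libraries. The ratio thus lay between 2.96 and 5.14 while the Ngp level spanned 108-fold in CPM. The 2 genes are separated by 570129 bases. Between Camp and Ltf, 21 other genes were tested, of which 1 was called higher and 3 lower in LPS against control. Over all genes, 8.79% were called higher and 8.63% lower there. The 21 genes had a median log2 change of -0.18 and a range of -0.60 to 2.13. Their log2 differences ranged from -0.61 to 0.53 in LPS plus RSBD against LPS, with 0 called (0% of all genes). In LPS plus RSBD against control they ranged from -0.76 to 2.67, with 1 called lower (1.8% of all genes).

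**Figure D3:**
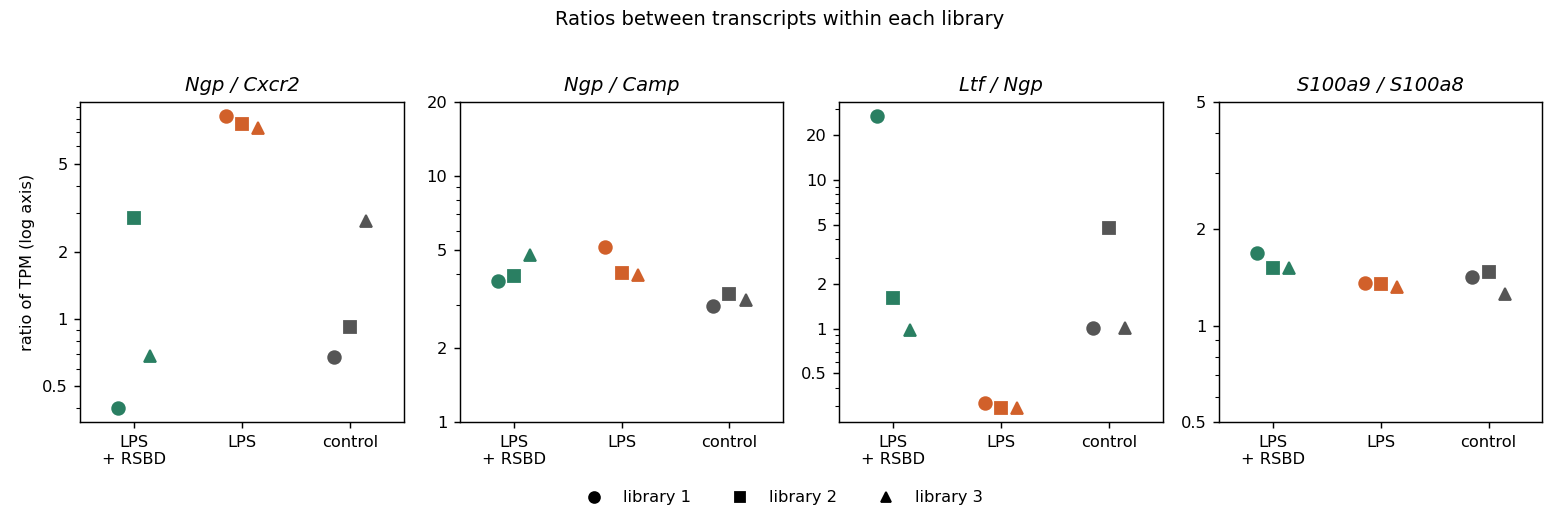
Ratios of TPM between pairs of transcripts within each library, on log axes, for LPS plus RSBD, LPS and control libraries from left to right. The 3 LPS libraries lie close together for Ngp over Cxcr2 (7.26 to 8.19) and Ltf over Ngp (0.294 to 0.316), apart from the other 6 libraries.

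Lcn2 (lipocalin 2, ENSMUSG00000026822, chromosome 2, 32384633 to 32388252), which starves bacteria of iron by binding their siderophores, is a specific granule protein that injured epithelium also makes. It measured 289.6, 448 and 272 CPM in LPS plus RSBD, 541, 690 and 416 CPM in LPS, and 234, 290.02 and 396 CPM in control libraries. The LPS libraries lay above the control libraries but overlapped with LPS plus RSBD 2. The log2 difference was 0.84 ± 0.26 in LPS against control (edgeR adjusted p = 0.056) and -0.71 ± 0.26 in LPS plus RSBD against LPS (adjusted p = 0.473). The difference of LPS from control was called without LPS plus RSBD 2 (edgeR adjusted p = 0.0371), by DESeq2 (0.00519) and in a fit of the 2 groups alone (0.0481), with adjusted p up to 0.172 over 16 alternatives. Its highest library was 2.95 times its lowest, against 108 times for Ngp.

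The alarmins S100a8 and S100a9 form a calcium- and zinc-binding heterodimer that neutrophils release and that signals through Tlr4. Per length they were the most abundant of the 10 genes, with means over the 9 libraries of 2625 TPM for S100a8 (ENSMUSG00000056054, chromosome 3, 90668978 to 90670035) and 3615 TPM for S100a9 (ENSMUSG00000056071, chromosome 3, 90692632 to 90695721). The genes lie 22596 bases apart. S100a8 measured 113, 149 and 817 CPM in LPS plus RSBD, 1768, 1849 and 698 CPM in LPS, and 522, 139.6 and 539 CPM in control libraries. S100a9 measured 201, 237 and 1300.5 CPM in LPS plus RSBD, 2528, 2634 and 971 CPM in LPS, and 783, 216 and 711 CPM in control libraries. For both, LPS plus RSBD 1 and 2 were near control 2, while LPS plus RSBD 3 lay above LPS 3.

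The alarmins were higher in LPS than in control libraries by a log2 difference of 1.85 ± 0.80 for S100a8 and 1.84 ± 0.78 for S100a9, without overlap, and did not pass (edgeR adjusted p = 0.137 and 0.128). In LPS plus RSBD against LPS the S100a9 difference was -1.82 ± 0.78 (adjusted p = 0.518), and S100a8 averaged 360 ± 397 CPM in LPS plus RSBD and 1438 ± 642 CPM in LPS libraries (adjusted p = 0.50). Without LPS plus RSBD 3 the differences were -3.47 for S100a8 and -3.24 for S100a9. The ratio of S100a9 to S100a8 in TPM was 1.69, 1.51 and 1.51 in LPS plus RSBD, 1.36, 1.35 and 1.32 in LPS, and 1.42, 1.47 and 1.25 in control libraries. The subunits thus followed each other closely in all 9 libraries.

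Retnlg, Cxcr2 and Csf3r represent the mature neutrophil. Retnlg (resistin-like gamma, ENSMUSG00000022651, chromosome 16, 48872621 to 48874496) is a secreted protein of blood and marrow neutrophils. It measured 33.7, 52.9 and 249 CPM in LPS plus RSBD, 589.5, 508 and 174 CPM in LPS, and 247, 71.4 and 276.5 CPM in control libraries. Cxcr2 (ENSMUSG00000026180, chromosome 1, 74153989 to 74161246), the receptor for the chemokines that draw neutrophils out of marrow and into tissue, measured 43.02, 26.9 and 197 CPM in LPS plus RSBD, 232, 180.1 and 81.5 CPM in LPS, and 103, 48.05 and 97.4 CPM in control libraries. In all 3 groups these 2 genes overlapped.

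Csf3r (ENSMUSG00000028859, chromosome 4, 126024550 to 126044440), the receptor for the growth factor G-CSF, measured 155, 67.99 and 451 CPM in LPS plus RSBD, 370.1, 274 and 123 CPM in LPS, and 216, 128 and 159 CPM in control libraries. Its highest library of all was LPS plus RSBD 3, in which Ngp and Camp lay below every LPS library. In LPS against control the log2 differences were 1.10 ± 0.79 for Retnlg, 0.99 ± 0.69 for Cxcr2 and 0.61 ± 0.62 for Csf3r (edgeR adjusted p from 0.346 to 0.521). They were -1.92 ± 0.81, -0.89 ± 0.69 and -0.19 ± 0.61 in LPS plus RSBD against LPS (edgeR adjusted p from 0.513 to 0.956). That of Csf3r changed sign without LPS plus RSBD 1, LPS plus RSBD 2 or LPS 1, and reached 0.24 at the highest. Without LPS plus RSBD 3 the 3 differences were -3.31, -2.25 and -1.22.

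Set against the 3 mature genes, the mean of the 3 specific granule genes was higher in LPS libraries than in all others. The mean log2 CPM of Ngp, Camp and Ltf minus that of Retnlg, Cxcr2 and Csf3r was -1.94, -0.84 and -2.93 in LPS plus RSBD libraries 1 to 3, -0.12, -0.20 and -0.12 in LPS libraries, and -3.02, -1.75 and -0.95 in control libraries. Only differences between libraries can be read from this index, since its 0 point depends on transcript lengths. The LPS libraries lay close together and above all others, although Ngp was 3.28 times higher in LPS 1 than in LPS 3. The group means were -1.90 ± 1.04 in LPS plus RSBD, -0.15 ± 0.05 in LPS and -1.91 ± 1.04 in control libraries (SD, n = 3 each). No p is given for an index over chosen genes, and 3 against 3 libraries cannot reach an exact permutation p under 0.1.

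Ngp and Camp carried this index: the log2 difference of LPS from control was 1.08 for Ltf, close to 1.10 for Retnlg and 0.99 for Cxcr2. It had a median of 1.23 over 15 other specific and gelatinase granule genes and of 1.09 over 18 other mature genes. Ly6g, another mature marker, differed by 3.15 ± 0.98 (edgeR adjusted p = 0.0551), more than Camp. The index therefore describes these 6 genes, not their classes.

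With Ltf left out, a choice made after its values were seen, the index was -4.32, -1.90 and -3.79 in LPS plus RSBD, -0.45, -0.44 and -0.35 in LPS, and -3.77, -3.28 and -1.73 in control libraries. The ratio of Ngp to Cxcr2 in TPM was 0.401, 2.85 and 0.683 in LPS plus RSBD, 8.19, 7.56 and 7.26 in LPS, and 0.675, 0.927 and 2.77 in control libraries. The mature genes of LPS plus RSBD 3 averaged 8.13 log2 CPM, against 8.19 in LPS 2, while Ngp measured 55.9 CPM, against 551 CPM in LPS 2. Single mature genes differed in both directions: 249 against 508 CPM for Retnlg, 197 against 180.1 CPM for Cxcr2 and 451 against 274 CPM for Csf3r. Ly6g measured 18.9 CPM in LPS plus RSBD 3 and 61.4 CPM in LPS 2. LPS 3 had a lower mature mean (6.91 log2 CPM) than LPS plus RSBD 3 and 238 CPM of Ngp.

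**Figure D4:**
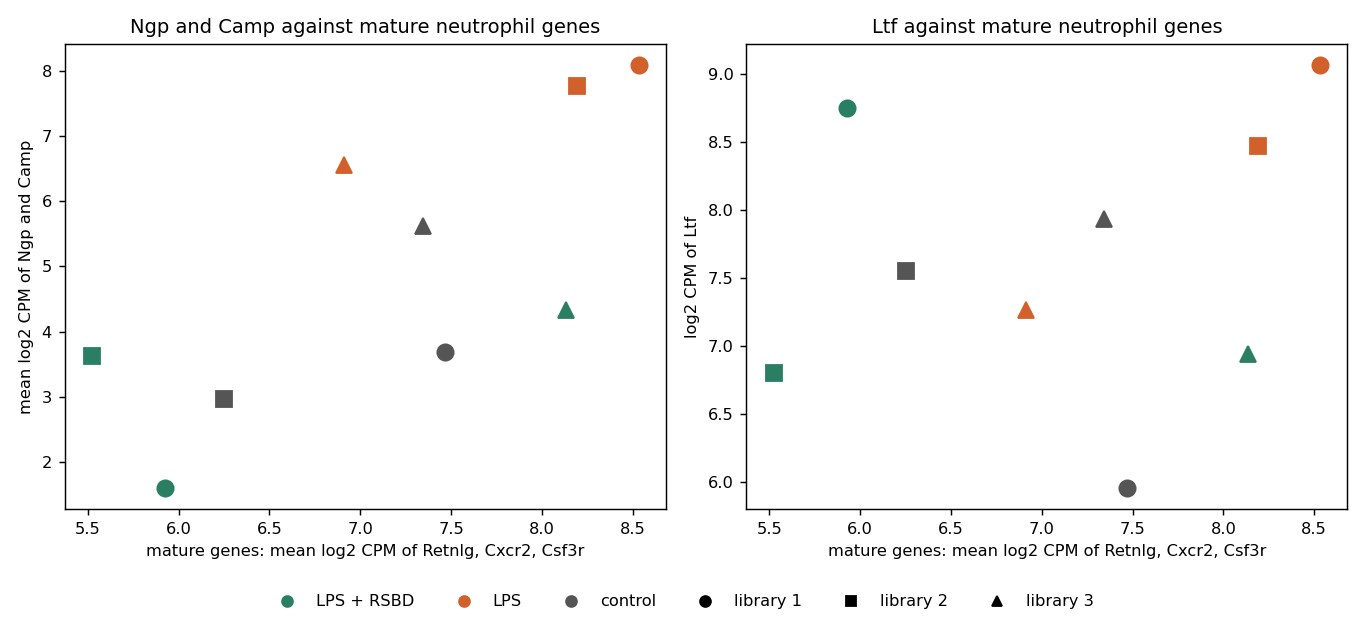
Mean log2 CPM of Ngp and Camp (left) and log2 CPM of Ltf (right) against the mean log2 CPM of Retnlg, Cxcr2 and Csf3r, for 1 point per library; colours give the group and markers the library number. At a similar mean of the mature genes, LPS plus RSBD 3 (mature 8.13) lies far below LPS 2 (mature 8.19) for Ngp and Camp, and LPS plus RSBD 1 stands apart for Ltf. That mean averages opposite differences: Retnlg was lower and Csf3r higher in LPS plus RSBD 3 than in LPS 2.

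Lrg1 (leucine-rich alpha-2-glycoprotein, ENSMUSG00000037095, chromosome 17, 56119678 to 56122001), a modulator of TGF-beta signalling that endothelium, liver and neutrophil granules supply, was the steadiest of the 10 genes. It measured 137, 103 and 139.3 CPM in LPS plus RSBD, 164, 172 and 94.5 CPM in LPS, and 105.03, 116 and 118 CPM in control libraries. All groups overlapped, and the highest library was 1.82 times the lowest. The log2 difference was 0.34 ± 0.21 in LPS against control (edgeR adjusted p = 0.277), which was called without LPS 3 (0.0268, at 0.59), and -0.18 ± 0.21 in LPS plus RSBD against LPS (adjusted p = 0.836). The 10 endothelial markers summed to 4584 to 4962 CPM in LPS plus RSBD, 4823 to 6113 CPM in LPS and 4949 to 5427 CPM in control libraries.

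Genes that are switched on earlier than Ngp and Camp were also lower in LPS plus RSBD than in LPS libraries, without passing the test. Of 6 primary granule genes, 0 were called in any comparison by edgeR. Of Mpo, Prtn3 and Ctsg, DESeq2 called Prtn3 alone, in LPS against control and in LPS plus RSBD against LPS. Reads were few, at most 87 for Prtn3 in an LPS plus RSBD library. Mpo, the myeloperoxidase that makes hypochlorous acid, measured 0.165, 0.419 and 1.27 CPM in LPS plus RSBD, 22.7, 6.63 and 4.07 CPM in LPS, and 0.95, 0.637 and 9.82 CPM in control libraries. Prtn3, the serine protease proteinase 3, measured 0.823, 1.19 and 3.16 CPM in LPS plus RSBD, 21.7, 9.05 and 3.49 CPM in LPS, and 2.57, 1.82 and 4.98 CPM in control libraries. Ctsg, the protease cathepsin G, measured 0.11, 0 and 1.16 CPM in LPS plus RSBD, 13.7, 3.92 and 1.74 CPM in LPS, and 0.457, 0 and 3.45 CPM in control libraries. In each of these the LPS plus RSBD libraries lay below the LPS libraries without overlap.

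That held for 5 of the 6 primary granule genes, Prss57 being the exception, where 5.46% of all genes were lower without overlap. Their median log2 difference in LPS plus RSBD against LPS was -3.75, against 0.01 over all genes. In LPS against control it was 1.92, with 1 of 6 higher without overlap, Ms4a3, a membrane protein of early granulocyte precursors. Ms4a3 had 0 to 4 reads in LPS plus RSBD and 0 to 19 in control libraries. It entered the test only through its reads in LPS libraries, so its lack of overlap carries no weight in either count. Cebpe, which encodes C/EBP epsilon, measured 0.384, 0.484 and 0.909 CPM in LPS plus RSBD, 4.94, 4.02 and 1.42 CPM in LPS, and 1.16, 0.478 and 2.24 CPM in control libraries. Its difference in LPS plus RSBD against LPS was -2.55 ± 0.64 (edgeR adjusted p = 0.362, DESeq2 adjusted p = 0.0124). Prss57, Ms4a3 and Cebpe were singled out after their values had been seen.

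**Figure D5:**
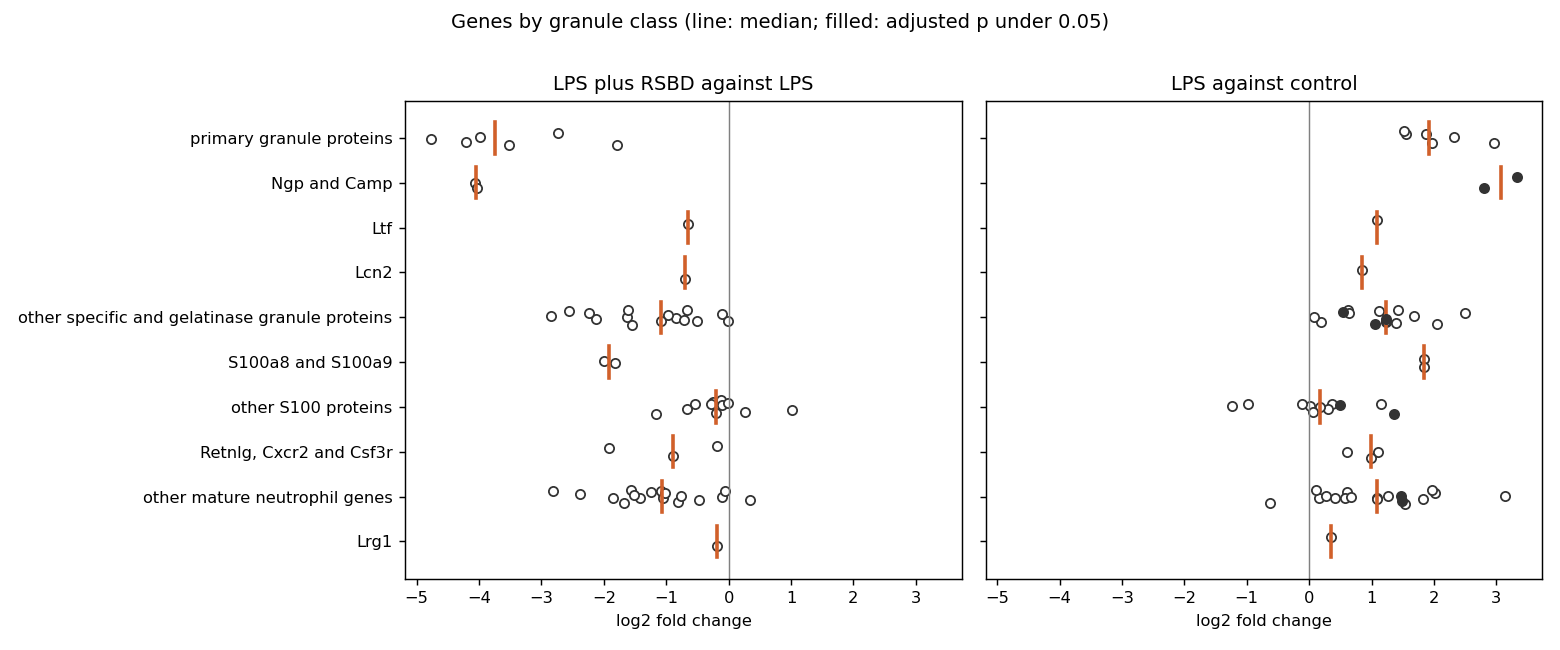
Log2 fold change of single genes by granule class in LPS plus RSBD against LPS (left) and LPS against control (right), with the class median as a line. Filled points passed an edgeR adjusted p of 0.05. Primary granule genes (median -3.75) and Ngp and Camp lie farthest left in LPS plus RSBD against LPS, and 0 points are filled there.

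Of 15 other specific and gelatinase granule genes, 3 rose in LPS against control and 0 fell (median log2 change 1.23). This is 20% of the list, where 8.79% of all genes were called higher in this comparison and 17.4% in either direction. They were Cyba, Cybb and Anxa1, of which Cyba and Cybb encode the membrane subunits of the phagocyte NADPH oxidase, also present in macrophages, and Anxa1 encodes annexin A1, a protein that limits neutrophil entry. Cyba averaged 131 ± 32.01 CPM in LPS and 62.8 ± 3.26 CPM in control libraries (1.06 ± 0.16, edgeR adjusted p = 0.00536). Cybb differed by 1.23 ± 0.24 (adjusted p = 0.0135) and Anxa1 by 0.54 ± 0.16 (adjusted p = 0.0411). Cyba and Cybb were called under all 16 alternatives. Anxa1 was called under 7 and lost without LPS plus RSBD 1, LPS 1, LPS 2 or any control library (adjusted p up to 0.157). None of the 15 was called by edgeR in LPS plus RSBD against LPS (median -1.08). Of Cyba, Cybb, Anxa1 and Cebpe, DESeq2 called Anxa1 (adjusted p = 0.00511) and Cebpe (adjusted p = 0.0124) lower there. Of 10 alveolar macrophage markers, 5 (50%) rose in LPS against control. Their summed level was 984 to 1884 CPM in LPS plus RSBD, 1911 to 3808 CPM in LPS and 1283 to 1619 CPM in control libraries, most of it from Chil3, which neutrophil precursors also express. Without Chil3, left out after its values were seen, the other 9 summed to 416 to 527 CPM in LPS plus RSBD, 431 to 599 CPM in LPS and 291 to 339 CPM in control libraries. LPS plus RSBD then overlapped with LPS and lay above control. Their part in the oxidase levels was not tested.

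Of 18 other mature neutrophil genes, 2 rose in LPS against control and 0 fell (median 1.09), which is 11.1% of the list and near the 8.79% of all genes called higher. The median was -1.07 in LPS plus RSBD against LPS, with 0 called by edgeR. The 2 genes were Fpr1 and Fpr2, receptors that guide neutrophils and monocytes towards formylated bacterial peptides, Fpr2 also being a receptor for the peptide cut from Camp. Fpr1 measured 13.2, 23.1 and 33.4 CPM in LPS plus RSBD, 63.1, 64.5 and 37.6 CPM in LPS, and 22.4, 13.98 and 23.5 CPM in control libraries (LPS against control 1.46 ± 0.35, edgeR adjusted p = 0.0254). Fpr2 differed by 1.49 ± 0.44 in LPS against control (adjusted p = 0.0471). The Fpr1 call was lost without LPS 1, LPS 2 or any control library (adjusted p up to 0.0795). The Fpr2 call was lost when any library but LPS 3 was left out (adjusted p up to 0.135). The differences of LPS plus RSBD from LPS were -1.25 ± 0.35 for Fpr1 and -1.56 ± 0.44 for Fpr2, without overlap and not called by edgeR (adjusted p = 0.393 and 0.394). DESeq2 called Fpr1 (adjusted p = 0.0161) and not Fpr2. Of 10 monocyte markers, 5 rose (Ly6c2, Ccr2, Csf1r, Plac8 and Ms4a6c) and Cd14 fell in LPS against control. These are 50% and 10% of the list, where 8.79% of all genes were called higher and 8.63% lower. The 10 summed to 1016 to 1377 CPM in LPS plus RSBD, 1153 to 1923 CPM in LPS and 816 to 906 CPM in control libraries.

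Among the 12 other S100 genes, of which 11 were tested, S100a4 and S100a11 rose in LPS against control and 0 fell (median 0.18). They are 18.2% of those tested, where 8.79% of all genes were called higher and 17.4% in either direction. S100a4, a calcium-binding protein of motile and macrophage lineage cells, measured 37.8, 45.2 and 46.9 CPM in LPS plus RSBD, 61.6, 68.9 and 57.5 CPM in LPS, and 30.8, 23.2 and 19.4 CPM in control libraries. It rose in LPS against control by 1.36 ± 0.16 (edgeR adjusted p = 0.00282) and in LPS plus RSBD against control by 0.82 ± 0.16 (adjusted p = 0.0271). The second call was lost without LPS plus RSBD 2, LPS plus RSBD 3, control 2 or control 3 (adjusted p up to 0.105), and the first was kept under all 16 alternatives. S100a11, a calcium-binding protein of many cell types, differed by 0.49 ± 0.11 in LPS against control (adjusted p = 0.0157), a call lost without LPS 2 or control 2 (adjusted p up to 0.0705).

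Of 12 chemokines and growth factors that guide or make neutrophils, 10 were tested. In LPS against control 1 rose, which is 10% of those tested and near the 8.79% of all genes called higher. This was Cxcl12, the ligand that holds neutrophils in the marrow through Cxcr4, at 371, 339 and 285 CPM in LPS plus RSBD, 361, 451 and 311 CPM in LPS, and 266, 234 and 236 CPM in control libraries (0.61 ± 0.14, edgeR adjusted p = 0.0222). The call was lost without LPS 2, control 2 or control 3 (adjusted p up to 0.0789). The median over the 10 was 0.19 in LPS against control and -0.14 in LPS plus RSBD against LPS. Csf3, which encodes G-CSF, the ligand of Csf3r, was at 0 reads in 5 of the 9 libraries and was not tested.

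Of 12 receptors and partners of the secreted members, Eng fell in LPS against control and 0 rose. This is 8.33% of the list, near the 8.63% of all genes called lower. Eng, the endothelial TGF-beta co-receptor endoglin that takes part in Lrg1 signalling, averaged 428 ± 100.01 CPM in LPS and 611 ± 21.7 CPM in control libraries (-0.51 ± 0.15, adjusted p = 0.0449 by edgeR). The call was lost without LPS plus RSBD 1, LPS plus RSBD 2, LPS 1, LPS 2 or any control library (adjusted p up to 0.122). Of 12 other acute phase genes, 10 were tested and Il6 fell in LPS against control (-1.79 ± 0.55, edgeR adjusted p = 0.0477). This is 10% of those tested, again near the 8.63% of all genes called lower. Il6, an interleukin that drives the acute phase, measured 0.52, 0.751 and 0.691 CPM in LPS and 0.669, 3.73 and 2.42 CPM in control libraries, which overlapped. The call was lost when any library but control 1 was left out (adjusted p up to 0.187). Neither list had a call in LPS plus RSBD against LPS, with medians of -0.05 and 0.19.

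Over the 9 libraries, the genes outside the 10 whose log2 CPM followed the mean of Ngp, Camp and Ltf most closely, among 12387 genes of at least 5 CPM, were Clec5a, Itgb2l, Tesk2, Adpgk and Stom (Pearson's r from 0.93 to 0.97). Clec5a, a myeloid C-type lectin receptor, averaged 10.4 CPM in LPS plus RSBD, 23.1 CPM in LPS and 10.8 CPM in control libraries. In LPS plus RSBD against LPS it was called by DESeq2 (adjusted p = 0.0116) and not by edgeR (adjusted p = 0.351). Those closest to the mean of Retnlg, Cxcr2 and Csf3r were Ccr1, Dhrs9, Mxd1, Trem1 and Clec4d (r from 0.98 to 0.99). The 2 lists share no gene. They were ranked on the same libraries as the profiles, so r is a description.

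Some markers of blood and marrow cells also differed between groups. None of 10 neutrophil markers was called by edgeR in any comparison, where 17.4% of all genes were called in LPS against control. Of these markers, 5 are among the 10 genes described here (S100a8, S100a9, Retnlg, Cxcr2 and Csf3r). The other 5 summed to 119.7 to 416 CPM in LPS plus RSBD, 319 to 1026 CPM in LPS and 203 to 493 CPM in control libraries. Ly6g measured 1.37, 4.94 and 18.9 CPM in LPS plus RSBD, 49.4, 61.4 and 19.6 CPM in LPS, and 7.53, 0.732 and 6.55 CPM in control libraries. Eosinophil, basophil and mast cell markers summed to 26.8 to 38.1 CPM in LPS plus RSBD, 37.8 to 47.6 CPM in LPS and 16.9 to 23.2 CPM in control libraries. Of the 9 tested, 6 rose in LPS against control, or 66.7%, where 8.79% of all genes were called higher. They were Ccr3, Mcpt8, Cd200r3, Ms4a2, Cpa3 and Siglecf, the last also on the alveolar macrophage list. Ccr3, Mcpt8, Cd200r3 and Ms4a2 had only 0 to 16 reads in control libraries and entered the test through libraries given LPS. The share of this list therefore cannot be weighed against that of all genes. Erythroid markers summed to 4666 to 9484 CPM in LPS plus RSBD, 4654 to 8552 CPM in LPS and 548 to 4406 CPM in control libraries. The control libraries thus differed widely among themselves. Of the 9 tested, 1 rose in LPS against control (Epb42), which is 11.1% and near the 8.79% of all genes called higher. Platelet and megakaryocyte markers summed to 67.2 to 158 CPM in LPS plus RSBD, 132 to 340 CPM in LPS and 48.2 to 109 CPM in control libraries. Of these, 6 of 10 (60%) rose in LPS against control, against 8.79% of all genes. Gp1bb, 1 of the 6, had 3 to 8 reads in control libraries and entered the test through libraries given LPS. Of 10 marrow progenitor markers, which include Mpo, Prtn3, Ctsg and Cebpe, Cd34 and Flt3 rose and Gfi1 fell in LPS against control. These are 20% and 10% of the list, where 8.79% of all genes were called higher and 8.63% lower. Cd34 and Flt3 also rose in LPS plus RSBD against control, which is 20%, where 1.89% of all genes were called higher. There 0 members were called lower, and Mpo, Prtn3, Ctsg and Cebpe had log2 differences of -2.66, -0.87, -1.67 and -1.13. Elane and Ms4a3 were at 0 in LPS plus RSBD 1, Ctsg in LPS plus RSBD 2, and Ctsg and Ms4a3 in control 2. The part of these cells in the levels of Ngp and Camp was not tested.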

How the data were processed

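The counts deposited by the authors are whole numbers in every cell and were treated as estimated counts per gene (expected counts). TPM values were deposited by the authors for the same genes. The build is GRCm38 (mm10) and the tools named are StringTie 2.2.0, HISAT2 2.2.1, DESeq2 1.38.3 and fastp 0.23.2, with no role stated, per the submitters' processing notes. Libraries were strand-specific, with paired-end reads of 150 bases, per the labels' protocols. Which program counted reads, and on which gene models, is not given in the sources used here. Columns were matched to samples by name, those of LPS plus RSBD by the start of the name. Coordinates of the 10 genes are those of the deposited table and equal GENCODE M21, in which 0 other genes overlap them.

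Counts were fitted in R 4.3.3 with edgeR 4.0.16 (filterByExpr with minimum count 10 and minimum total 15, TMM, robust quasi-likelihood, group as the factor, all 9 libraries), and tested on simulated data first. SE is the absolute log2 fold change divided by the square root of F. The log2 CPM use a prior count of 2. Values of 2 outnumber values of 1 in the counts (2989 against 1349), for a reason that was not tested. Alternatives were DESeq2 1.42.0, RLE scaling, no filter, limma 3.58.1 on log2(TPM + 1) and log2(TPM + 0.1), 2 groups only, a replicate block and each library left out. The members and lists were chosen with earlier results of these data known. Of each list the text names the members called, otherwise the 3 most abundant, and, beside the most similar genes, others where said. Promoter sequences are from RefSeq on GRCm38.p6, and all 10 genes matched by symbol.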

Additional observations from a re-analysis of the deposited data

How the results depend on the processing

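Counts of called genes moved with the test and the libraries. In LPS against control (2723 genes) they ranged from 786 to 2870 with a library left out. In LPS plus RSBD against LPS (0 genes) there were 159 with DESeq2, 1 with limma on log2(TPM + 1), 1 with limma on log2(TPM + 0.1), 1 with only the 2 groups compared, and 0 to 4 with a library left out. In LPS plus RSBD against control (578 genes) there were 1757 with DESeq2, 275 and 302 with limma on log2(TPM + 1) and log2(TPM + 0.1), 240 with the replicate block, and 94 to 961 with a library left out. Of the 10 genes, 2 called in LPS against control became 0 with no filter on low counts, 1 (Lcn2) with only the 2 groups compared, 0 with the replicate block, and 0 to 2 with a library left out. In LPS plus RSBD against LPS DESeq2 called 2 of the 10, and in LPS plus RSBD against control no alternative called any. The index of specific granule against mature genes differed by 1.76 in LPS against control (1.21 to 2.24 with a library left out) and by -1.75 in LPS plus RSBD against LPS (-2.29 to -1.24). It moved to 2.51 and -2.92 with Ltf left out, an alternative chosen after seeing the data. In LPS plus RSBD against control it was 0.01 (-0.55 to 0.52). The cause of these moves was not tested. Among 477 values of single members under the alternatives, 427 kept direction and side of the threshold, 20 lost a call, 6 gained one, 24 uncalled ones changed sign and 0 called ones did. On log2(TPM + 1), 34.9% of calls in LPS against control were higher, against 50.5% on counts, and the median change of all genes was -0.09, against -0.01.

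Replicate numbers were not shown to pair samples: deviations of same-numbered libraries correlated from -0.21 to 0.12, over 0.1 in 2 of 9 pairs, and libraries did not all resemble their own number most. With the replicate block the called genes were 1828 in LPS against control and 0 in LPS plus RSBD against LPS. With 3 libraries per group, the SE of the members (median 0.73) was wider than that of all genes (0.15), which limits the size of difference that can be called. DESeq2 gave no adjusted p for S100a8.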
